A study of Mus musculus with 30 samples.

Results

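Genes that mark the D2 class of medium spiny neuron were followed through ribosome-associated RNA from the nucleus accumbens of stressed and unstressed female mice. The genes were Drd2, Adora2a, Penk, Gpr6, Gpr52 and Sp9, taken as a list of 6 known identity genes and looked up by identifier in GENCODE release M21. A row was found for 5 of the 6 among the 55335 genes counted. Gpr52 had no match and was not analysed here. All 5 passed the filter on low counts, which kept 19368 genes.

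The mice carried a Cre recombinase and RiboTag (RT), an HA-tagged ribosomal protein that Cre switches on, so that polyribosomes of the Cre-expressing cells can be pulled down with an antibody against HA. D1-Cre-RT mice tag cells that express the D1 dopamine receptor, and A2A-Cre-RT mice tag cells that express the adenosine A2A receptor, which in the striatum are mainly the D2 class. Libraries of the second line are called D2 here. Stressed females of both lines went through chronic witness defeat stress (CWDS) and were then named Resilient or Susceptible by their social interaction scores, beside Control females. Control mice also carried Cre and RiboTag, so no group lacks the transgenes. Each library pooled punches from 4 mice with like social interaction ratios, taken 24 h after the test, and was made from 10 ng of RNA. There were 5 libraries in each of 6 groups, 30 in all. Ages were not given in the sources used here, and differences between mice inside a pool cannot be seen.

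Medium spiny neurons fall mainly into a D1 and a D2 class. In the D2 class the dopamine receptor encoded by Drd2 lowers cyclic AMP, and the adenosine receptor encoded by Adora2a raises it in the same cells. Penk encodes proenkephalin, the precursor of the enkephalins, which act at mu and delta opioid receptors. Gpr6 encodes a receptor with constitutive activity that raises cyclic AMP. Sp9 encodes a zinc finger transcription factor that developing D2 neurons need.

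Coordinates are those of GENCODE M21 on GRCm38 and are for the whole gene. Adora2a (ENSMUSG00000020178) lies on the plus strand of chromosome 10 from 75316877 to 75334784, and Gpr6 (ENSMUSG00000046922) on the minus strand of the same chromosome from 41069977 to 41072285. Drd2 (ENSMUSG00000032259) lies on the plus strand of chromosome 9 from 49340627 to 49408177. Penk (ENSMUSG00000045573) lies on the minus strand of chromosome 4 from 4133531 to 4138819. Sp9 (ENSMUSG00000068859) lies on the plus strand of chromosome 2 from 73271925 to 73284706. Exons of Sp9 share 270 bases with Cir1 and those of Penk share 233 bases with A830012C17Rik, each on the opposite strand. The strand setting of the counting is not given in the sources used here, so reads in those bases cannot be assigned to either gene with certainty.

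The bases before the start site are shown for the 3 of the 5 genes that the RefSeq promoter table on GRCm38.p6 holds. Their part in the levels of the genes was not tested. Each sequence is the 250 bases before the RefSeq start, 5′ to 3′ on the gene's own strand. Capitals mark a GC box (GGGCGG or CCGCCC), the site type bound by Sp family factors, or a full cyclic AMP response element (TGACGTCA, the same on both strands).
Drd2 (chr9:49340153-49340402, plus strand): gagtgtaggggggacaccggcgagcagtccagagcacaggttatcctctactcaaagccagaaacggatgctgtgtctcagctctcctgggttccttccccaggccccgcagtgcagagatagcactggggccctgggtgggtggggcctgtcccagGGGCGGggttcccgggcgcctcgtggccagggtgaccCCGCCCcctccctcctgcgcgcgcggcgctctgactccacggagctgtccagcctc
Gpr6 (chr10:41072291-41072540, minus strand): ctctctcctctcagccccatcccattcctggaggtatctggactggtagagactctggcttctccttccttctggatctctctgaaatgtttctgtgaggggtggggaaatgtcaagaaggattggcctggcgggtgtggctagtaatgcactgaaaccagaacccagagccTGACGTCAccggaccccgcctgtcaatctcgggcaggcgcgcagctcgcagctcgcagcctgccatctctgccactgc
Sp9 (chr2:73271676-73271925, plus strand): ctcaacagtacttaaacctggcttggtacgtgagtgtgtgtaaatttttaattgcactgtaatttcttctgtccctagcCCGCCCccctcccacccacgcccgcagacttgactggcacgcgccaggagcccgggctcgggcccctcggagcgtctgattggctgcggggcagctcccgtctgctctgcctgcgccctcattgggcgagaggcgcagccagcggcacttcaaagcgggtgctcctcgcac
The Drd2 window held 2 GC boxes, which began at -93 and -56 from the start, and the Sp9 window held 1 at -171. The Gpr6 window held no GC box and 1 cyclic AMP response element at -78. Both strands were searched, the motifs were chosen with the sequences seen, and no matches of different motifs overlapped. A GC box was present in 32.7% of the 32851 promoter windows of the same length, and the cyclic AMP response element in 1.5%. The windows were 68.8% (Drd2), 58.4% (Gpr6) and 62.4% (Sp9) G or C, against a median of 52.4% over all windows. A match describes the letters only. Adora2a and Penk are not shown.

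Libraries held 28996168 to 65882152 gene counts, and 28 of the 30 detected 19440 to 22375 genes. D2 Susceptible replicates 1 and 2 detected 15822 and 16525. In D1 Susceptible replicate 1 the feature Gm42418 took 54.9% of gene counts. In D2 Resilient replicate 5 the D1-class genes were at 1878 CPM in sum, within the 1754 to 2634 CPM of the 15 D1 libraries. Values without 1 or all of these 4 libraries stand beside part of the stress results. Counts of replicates differed by more than sampling noise in all 60 pairs (chi-square per degree of freedom 13.7 to 2969), and each library was counted once.

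The first comparison asked whether the identity genes separated the tagged classes in each stress group. All 5 genes were higher in D2 than in D1 libraries in Control, in Resilient and in Susceptible mice, and for each gene every D2 library lay above every D1 library. Levels are CPM on TMM-scaled library sizes. By edgeR's quasi-likelihood test, with p adjusted by Benjamini-Hochberg over all 19368 genes, 5 of 5 were called higher in each comparison. The share of all genes called higher was 4.8% in Control, 3.9% in Resilient and 13.4% in Susceptible. Those shares rest in part on the libraries with few genes detected. Calls in either direction over all genes were 1608 in Control, 1288 in Resilient and 4621 in Susceptible mice with all libraries, and 3134, 2305 and 2123 without D2 Susceptible replicates 1 and 2. With only the groups compared in the fit they were 2696, 2184 and 915. The 5 genes were called in each of these fits. The share of all genes whose D2 libraries all lay above the D1 libraries was 6.05%, 5.01% and 4.12% in the same order. The median log2 difference of the 5 genes was 2.60 in Control, 2.35 in Resilient and 2.27 in Susceptible, against medians of 0.00, 0.00 and -0.02 over all genes tested.

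**Figure D1:**
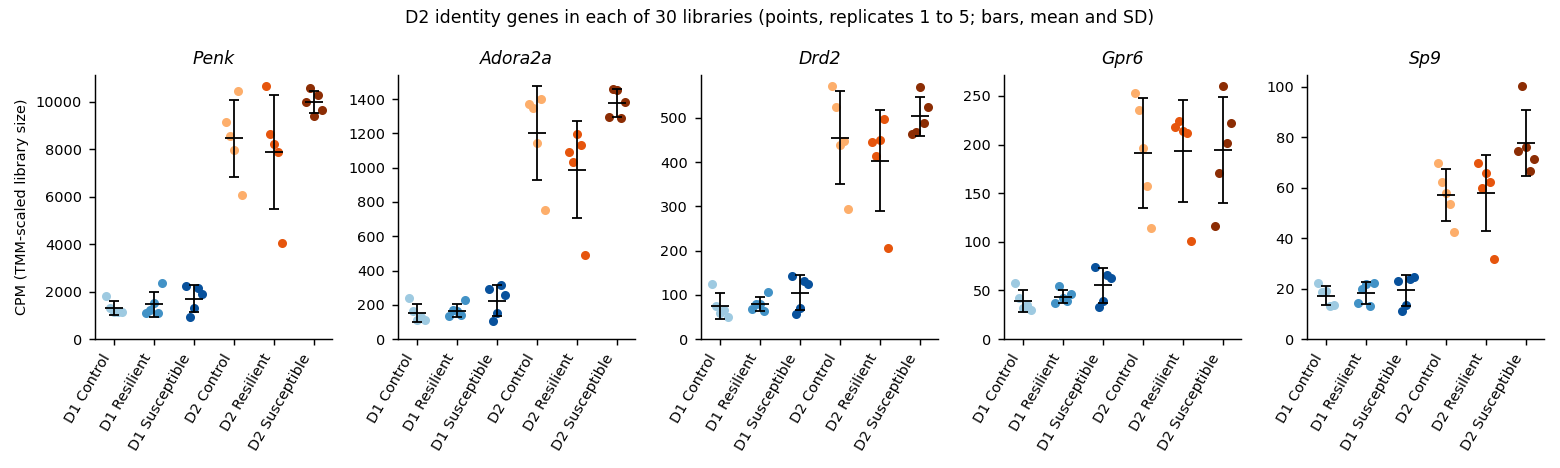
Level of each gene in CPM (linear axis from 0, a scale of its own for each gene) in the 6 groups, with 1 point for each library and bars for the mean and SD of 5 libraries. Every D2 point lies above every D1 point, and D2 Resilient replicate 5 is the lowest D2 point for each gene.

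Among the receptors, Adora2a differed most between classes. In D1 Control it was 238, 164, 111, 128 and 113 CPM in replicates 1 to 5, and in D2 Control it was 1371, 1349, 1142, 1398 and 751 CPM. The D1 libraries were low throughout and the lowest D2 Control library was still above the highest D1 one. The fitted log2 difference was 2.99 (SE 0.280, 7.97-fold, edgeR adjusted p 5.10e-08), with a 95% interval of 2.42 to 3.57. In Resilient mice the difference was 2.57 (SE 0.275, edgeR adjusted p 3.33e-07) and in Susceptible mice 2.62 (SE 0.276, edgeR adjusted p 2.66e-07). Adora2a is also the gene that names the Cre line, so its difference checks the labels.

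Drd2, the dopamine receptor that names the class, was 125, 74.7, 59.8, 64.7 and 49.8 CPM in D1 libraries and 572, 525, 439, 448 and 294 CPM in D2 libraries of Control mice. Its log2 difference was 2.60 in Control (SE 0.268, 6.08-fold, edgeR adjusted p 2.24e-07). It was 2.35 in Resilient (SE 0.265, edgeR adjusted p 7.52e-07) and 2.27 in Susceptible mice (SE 0.265, edgeR adjusted p 1.16e-06). The D2 libraries of the 3 states overlapped one another, and none of them overlapped a D1 library. The nearest pair was D2 Resilient replicate 5 at 205 CPM and D1 Susceptible replicate 1 at 143 CPM, a ratio of 1.43.

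Gpr6, the constitutively active receptor, was 57.8, 42.6, 32.5, 35.2 and 29.7 CPM in D1 libraries and 253, 235, 197, 158 and 114 CPM in D2 libraries of Control mice. Its D2 values spread widely, with replicate 1 high and replicate 5 low, and did not meet the D1 values. The log2 difference was 2.28 in Control (SE 0.261, 4.84-fold, edgeR adjusted p 1.13e-06), 2.15 in Resilient (SE 0.260, edgeR adjusted p 2.18e-06) and 1.82 in Susceptible mice (SE 0.258, edgeR adjusted p 1.55e-05). Without D2 Susceptible replicates 1 and 2, the Susceptible difference was 2.03 (edgeR adjusted p 3.80e-05).

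Penk, the enkephalin precursor, had the highest level of the 5 per length of exon. It was 1811, 1313, 1131, 1133 and 1125 CPM in D1 libraries and 9149, 8581, 7989, 10477 and 6085 CPM in D2 libraries of Control mice. The peptide gene was therefore well detected in D1 libraries too, below all D2 libraries. Its log2 difference was 2.70 in Control (SE 0.249, 6.49-fold, edgeR adjusted p 3.94e-08), 2.43 in Resilient (SE 0.246, edgeR adjusted p 1.15e-07) and 2.55 in Susceptible mice (SE 0.248, edgeR adjusted p 7.04e-08). A830012C17Rik, which shares exon bases with it, was at most 3.76 CPM in any library.

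Sp9, the transcription factor, had the lowest level of the 5 per length of exon. It was 22.1, 18.5, 18.9, 13.2 and 13.6 CPM in D1 libraries and 69.9, 62.3, 57.8, 53.7 and 42.3 CPM in D2 libraries of Control mice. The classes again did not overlap, at a smaller distance than for Adora2a. The log2 difference was 1.73 in Control (SE 0.219, 3.31-fold, edgeR adjusted p 3.41e-06), 1.67 in Resilient (SE 0.219, edgeR adjusted p 4.80e-06) and 2.02 in Susceptible mice (SE 0.222, edgeR adjusted p 3.32e-07). Cir1, the opposite-strand neighbour, was 309 and 276 CPM in D2 Susceptible replicates 1 and 2 and 58.0 to 171 CPM in the other 28 libraries, and its part in the Sp9 counts of those replicates was not tested. Without that pair of libraries the Susceptible difference of Sp9 was 1.88 (edgeR adjusted p 2.54e-05).

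The lowest D2 library lay closest to the highest D1 library for Sp9 (1.29 times) and farthest for Penk (1.72 times). For all 5 genes the lowest D2 library was D2 Resilient replicate 5 and the next lowest was D2 Control replicate 5. Each of the 15 class differences was called in all of its alternatives, 270 in total, of which 150 left out 1 library.

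**Figure D2:**
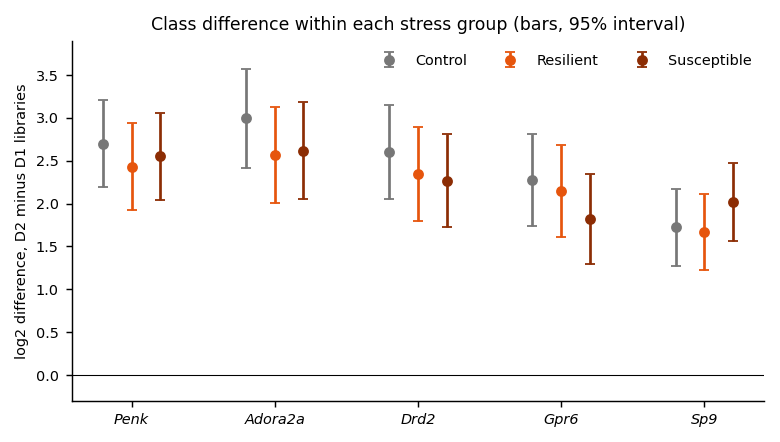
Log2 difference between D2 and D1 libraries for each gene within Control, Resilient and Susceptible mice, with 95% intervals from the edgeR fit. All 15 intervals lie above 0, and the differences run from 1.67 for Sp9 in Resilient mice to 2.99 for Adora2a in Control mice.

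Compared per length, as CPM per kilobase of exon, the order of levels was Penk, Adora2a, Drd2, Gpr6 and Sp9 in 15 of 15 libraries of each class. In D2 Control these per-length levels were 5175 ± 988 for Penk, 393 ± 88.7 for Adora2a, 179 ± 41.6 for Drd2, 107 ± 31.8 for Gpr6 and 11.3 ± 2.03 for Sp9 (SD, n = 5). Penk was 11.9 to 18.4 times Adora2a across the D2 libraries. The closest neighbours were Drd2 and Gpr6, at 1.04 to 1.60 times in D1 and 1.30 to 2.80 times in D2 libraries, and their ranges over libraries overlapped in both classes. The ranges of Adora2a and Drd2 also overlapped in both classes, and those of Gpr6 and Sp9 and of Penk and Adora2a did not.

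The stress comparisons within D2 libraries asked whether the identity genes changed between Control, Resilient and Susceptible mice. None of the 5 was called. D2 Susceptible had the highest mean level of each gene, and D2 Resilient had the lowest mean of Drd2, Adora2a and Penk. For D2 Susceptible minus Control, edgeR called 0 of 5, with 1 at an unadjusted p under 0.05, against 0.00516% of all genes called in either direction. For D2 Susceptible minus Resilient it called 0 of 5, with 0 at an unadjusted p under 0.05 and 0.0516% of all genes called. For D2 Resilient minus Control it called 0 of 5, with 0 at an unadjusted p under 0.05 and 0% of all genes called. DESeq2 and voom with quality weights also called 0 of the 5 in each. Over all genes the tools differed. DESeq2 called 255 genes for D2 Susceptible minus Control, 5 for Resilient minus Control and 976 for Susceptible minus Resilient, and voom with quality weights called 0, 0 and 1. When D2 Susceptible replicate 3 was left out of the edgeR fit, 828 genes passed for Susceptible minus Control and 1964 for Susceptible minus Resilient, with 0 of the 5 among them. The 2 stressed groups are compared with the same Control libraries, so these differences are not independent.

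Adora2a was the identity gene whose D2 Susceptible and D2 Resilient libraries did not overlap. It was 1297, 1457, 1452, 1292 and 1384 CPM in D2 Susceptible and 1089, 1029.9, 1197, 1133 and 491 CPM in D2 Resilient. All 5 Susceptible libraries lay above all 5 Resilient ones, the only such separation among the 30 pairs of a gene and a stress comparison within a class. Of all genes, 0.62% separated in that direction here, a direction taken from the Adora2a values. The share in either direction is not given for this comparison and cannot be smaller. The 0.62% is therefore not comparable with the shares that follow. Separation in either direction took 1.31% of genes for D2 Susceptible and 1.31% for D2 Resilient minus Control, and in D1 libraries 0.888%, 1.54% and 1.12% for Susceptible minus Control, Resilient minus Control and Susceptible minus Resilient. The log2 difference was 0.48 (SE 0.260, 95% interval -0.05 to 1.01), which edgeR did not call (adjusted p 0.320). It was 0.31 without D2 Resilient replicate 5 (edgeR adjusted p 0.578) and 0.30 without the 4 libraries that stand apart. That library also had the highest D1-class sum of its group, and its endothelial marker sum was 46.8 CPM against 142 to 168 CPM in the rest of the group. The part of other cells in this difference was not tested. Against D2 Control the Susceptible libraries differed by 0.20 (95% interval -0.34 to 0.73, edgeR adjusted p 0.744) and the Resilient libraries by -0.28 (95% interval -0.82 to 0.25, edgeR adjusted p 1.00), or by -0.11 without D2 Resilient replicate 5.

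Sp9 was 74.4, 100.4, 76.2, 66.8 and 71.4 CPM in D2 Susceptible and 69.7, 59.9, 65.7, 62.3 and 31.9 CPM in D2 Resilient. Replicate 2 was the highest of the Susceptible libraries and the groups overlapped. The transcription factor was 0.45 higher on the log2 scale than in D2 Control (SE 0.212, 95% interval 0.01 to 0.88, unadjusted p 0.0447 and adjusted p 0.307 by edgeR). The difference was 0.33 without D2 Susceptible replicate 2 and 0.32 without replicates 1 and 2. Against Resilient it was 0.43 (95% interval -0.01 to 0.86, edgeR adjusted p 0.271), and 0.27 without D2 Resilient replicate 5 or 0.14 without the 4 libraries that stand apart.

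Penk was 10002, 10603, 9412, 10286 and 9653 CPM in D2 Susceptible and 10665, 8638, 8235, 7888 and 4038 CPM in D2 Resilient. The Susceptible values lay inside the range of the Resilient ones. The coefficient of variation was 4.78% in Susceptible, 30.5% in Resilient and 19.1% in Control, and without replicate 5 of each group it was 14.0% in Resilient and 11.8% in Control. The log2 difference between Susceptible and Resilient was 0.34 (95% interval -0.14 to 0.82, edgeR adjusted p 0.442), 0.17 without D2 Resilient replicate 5 (edgeR adjusted p 0.739) and 0.13 without the 4 libraries that stand apart. It was 0.24 against Control (95% interval -0.24 to 0.72, edgeR adjusted p 0.634).

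Drd2 was 464, 468, 569.8, 489 and 525 CPM in D2 Susceptible and 447, 415, 450.0, 498 and 205 CPM in D2 Resilient. The dopamine receptor gene overlapped between all 3 states. Its log2 differences were 0.14 for Susceptible minus Control (95% interval -0.37 to 0.66, edgeR adjusted p 0.808), -0.18 for Resilient minus Control (95% interval -0.69 to 0.34) and 0.32 for Susceptible minus Resilient (95% interval -0.20 to 0.84, edgeR adjusted p 0.508). Without D2 Resilient replicate 5 the Resilient minus Control difference was -0.01 and Susceptible minus Resilient was 0.15 (edgeR adjusted p 0.797). The coefficient of variation was 8.82% in D2 Susceptible, 28.4% in D2 Resilient and 23.2% in D2 Control, and without replicate 5 it was 7.57% in Resilient and 12.8% in Control.

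Gpr6 differed little between stress groups when all libraries were used. It was 116, 170.3, 260.4, 201 and 222 CPM in D2 Susceptible and 218, 224, 214, 212 and 100.5 CPM in D2 Resilient. Both groups held low and high libraries. The log2 difference was 0.00 between Susceptible and Resilient (95% interval -0.51 to 0.51), 0.02 between Susceptible and Control (95% interval -0.49 to 0.53) and 0.02 between Resilient and Control (95% interval -0.49 to 0.53), with edgeR adjusted p from 0.980 to 1.00. Without D2 Resilient replicate 5, Resilient minus Control was 0.18 and Susceptible minus Resilient -0.16. Without D2 Susceptible replicates 1 and 2, Susceptible minus Control was 0.25 and Susceptible minus Resilient 0.23. Without D2 Control replicate 5, Susceptible minus Control and Resilient minus Control were both -0.12. The small values thus depend on which libraries are used. The coefficient of variation of Gpr6 was 28.1% in D2 Susceptible. D2 Susceptible replicates 1 and 2, the libraries with the fewest genes detected, were the lowest of their group for Gpr6 and for Drd2, while replicate 2 was the highest of its group for Adora2a, Penk and Sp9.

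**Figure D3:**
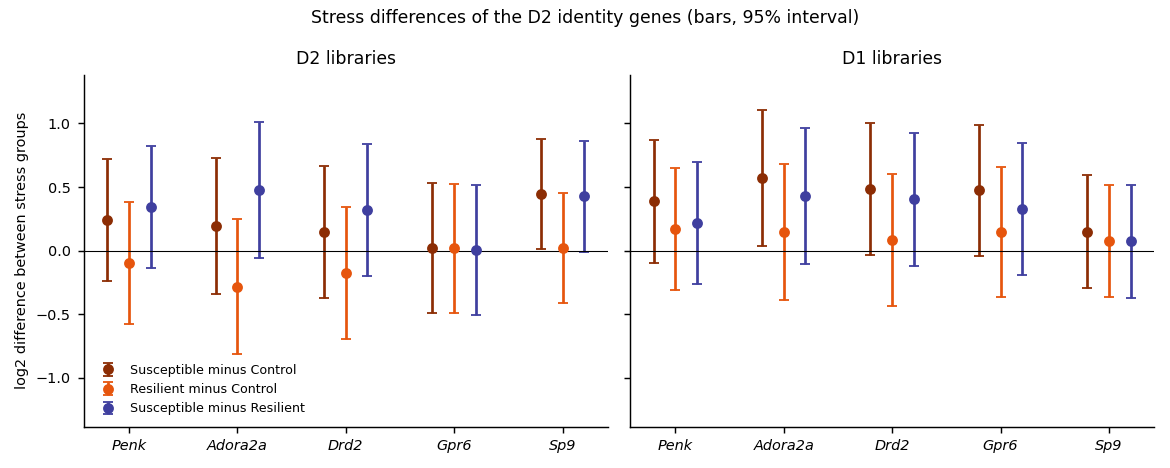
Log2 differences between stress groups for each gene, within D2 libraries (left) and D1 libraries (right), with 95% intervals from the edgeR fit. All but 2 of the 30 intervals include 0; those of Sp9 in D2 and of Adora2a in D1, both Susceptible minus Control, do not, and neither passed adjustment over all genes.

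The same genes were compared between stress groups within D1 libraries, where the level of each gene is lower than in D2 libraries. For D1 Susceptible minus Control, edgeR called 0 of 5, with 1 at an unadjusted p under 0.05, against 0% of all genes called. For D1 Resilient minus Control and D1 Susceptible minus Resilient it called 0 of 5, with 0 at an unadjusted p under 0.05 in each and 0% of all genes called. DESeq2 called 0 of the 5 in these comparisons and 1 to 8 of all genes. Voom with quality weights also called 0 of the 5, and over all genes 0 for Susceptible minus Control, 173 for Resilient minus Control and 15 for Susceptible minus Resilient. The mean of each gene was lowest in D1 Control and highest in D1 Susceptible, with all 3 groups overlapping. Adora2a was 293, 105, 151, 314 and 259 CPM in D1 Susceptible and 134, 168, 165, 139 and 227 CPM in D1 Resilient. Replicates 1, 4 and 5 of D1 Susceptible lay above every D1 Control library, and replicates 2 and 3 did not. The log2 difference from Control was 0.57 (SE 0.261, 95% interval 0.04 to 1.11, unadjusted p 0.0368 and adjusted p 1 by edgeR), and 0.46 without D1 Susceptible replicate 1.

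The other 4 genes were high in the same libraries. Drd2 was 143, 55.8, 70.9, 130.4 and 124 CPM in D1 Susceptible, a log2 difference of 0.48 from Control (95% interval -0.04 to 1.00, edgeR adjusted p 1). Gpr6 was 74.6, 33.5, 39.3, 65.6 and 62.8 CPM, a difference of 0.47 (95% interval -0.04 to 0.99). Penk was 2237, 915, 1322, 2137 and 1902 CPM, a difference of 0.39 (95% interval -0.09 to 0.87). Sp9 was 23.0, 11.3, 13.7, 23.7 and 24.7 CPM, a difference of 0.15 (95% interval -0.29 to 0.59). Without D1 Susceptible replicate 1 the difference from Control was 0.35 for Drd2, 0.35 for Gpr6 and 0.27 for Penk. For Sp9 it ran from 0.04 to 0.30 when 1 library was left out. The D1 Resilient libraries spanned 64.0 to 106 CPM for Drd2, 36.8 to 54.2 CPM for Gpr6, 1080.4 to 2352 CPM for Penk and 12.97 to 22.3 CPM for Sp9, and overlapped both other D1 groups. In the same 5 libraries, in replicate order, the summed level of 4 endothelial markers was 26.6, 15.4, 12.8, 31.5 and 21.02 CPM, and that of 8 D1-class genes was 1754, 2634, 2437, 1987 and 1783 CPM. Replicates 1, 4 and 5 were thus high in the D2 identity genes and the endothelial sum and low in the D1-class sum, and the part of other cells in these values was not tested. In pooled tissue, fewer cells of a type and less RNA per cell cannot be told apart.

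The difference between the D2 and the D1 change was tested directly as an interaction. For each of the 3 pairs of states edgeR called 0 of 5, with 0 at an unadjusted p under 0.05 and 0% of all genes called. DESeq2 and voom with quality weights called 0 of the 5 as well, beside 5 to 45 of all genes in DESeq2 and 0 to 169 in voom. For Susceptible minus Control the differences of changes ran from -0.45 for Gpr6 (95% interval -1.18 to 0.27, edgeR adjusted p 0.717) to 0.30 for Sp9 (95% interval -0.32 to 0.92, edgeR adjusted p 0.783). The Sp9 value was the only positive one of the 5 there. Without the 4 libraries that stand apart the same interaction was -0.10 for Gpr6, -0.14 for Drd2, -0.27 for Adora2a, -0.07 for Penk and 0.23 for Sp9, so Gpr6 no longer had the lowest value. For Resilient minus Control they ran from -0.43 for Adora2a to -0.06 for Sp9, and for Susceptible minus Resilient from -0.32 for Gpr6 to 0.35 for Sp9. Without D2 Resilient replicate 5 the first of these was -0.26 for Adora2a and 0.09 for Sp9. Without the 4 libraries the last was -0.14 for Gpr6 and 0.13 for Sp9. Over all 45 stress and interaction results the smallest adjusted p in any alternative was 0.201 (Sp9, D2 Susceptible minus Resilient, edgeR without D2 Susceptible replicate 5).

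Ratios of 2 identity genes within a library were compared next, since a ratio is not moved by library scaling. The log2 ratio of counts to Adora2a was tested over the D2 libraries by exact two-sided permutation of 5 against 5, in 12 tests adjusted together. None of the 12 passed, with a smallest adjusted p of 0.0952. No exact permutation p under 0.00794 is possible here, so 1 ratio that changed alone could not pass the adjustment over 12 tests. The absence of a call therefore does not show that no single ratio changed. The Gpr6 ratio averaged -2.67 ± 0.285 over the D2 Control libraries, -2.34 ± 0.110 over the Resilient and -2.88 ± 0.408 over the Susceptible ones (SD, n = 5). Gpr6 was thus higher relative to Adora2a in Resilient than in Control by 0.33 and lower in Susceptible than in Resilient by -0.53 on the log2 scale (exact permutation p 0.0159 and adjusted p 0.0952 for both). The Sp9 ratio was -4.38 ± 0.207, -4.08 ± 0.118 and -4.16 ± 0.178 in the same order, and Resilient minus Control was 0.30 (exact permutation p 0.0238, adjusted 0.0952).

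The Drd2 and Penk ratios moved least. Drd2 relative to Adora2a averaged -1.40 (SD 0.143) for D2 Control, -1.29 (SD 0.0825) for D2 Resilient and -1.45 (SD 0.114) for D2 Susceptible, with 5 libraries each, and Susceptible minus Resilient was -0.16 (exact permutation p 0.0317, adjusted 0.0952). The Penk ratio was 2.83 ± 0.138, 3.00 ± 0.212 and 2.86 ± 0.118, with adjusted p from 0.299 to 0.706 by the exact permutation test. Without D2 Control replicate 5, 4 of the 12 tests passed, each at an exact permutation adjusted p of 0.0476. These were Gpr6 for Resilient minus Control and for Susceptible minus Resilient, and Sp9 for Susceptible minus Control (0.28) and for Resilient minus Control (0.36). Without D2 Susceptible replicates 1 and 2 none passed, and the Gpr6 difference between Susceptible and Resilient was -0.26.

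**Figure D4:**
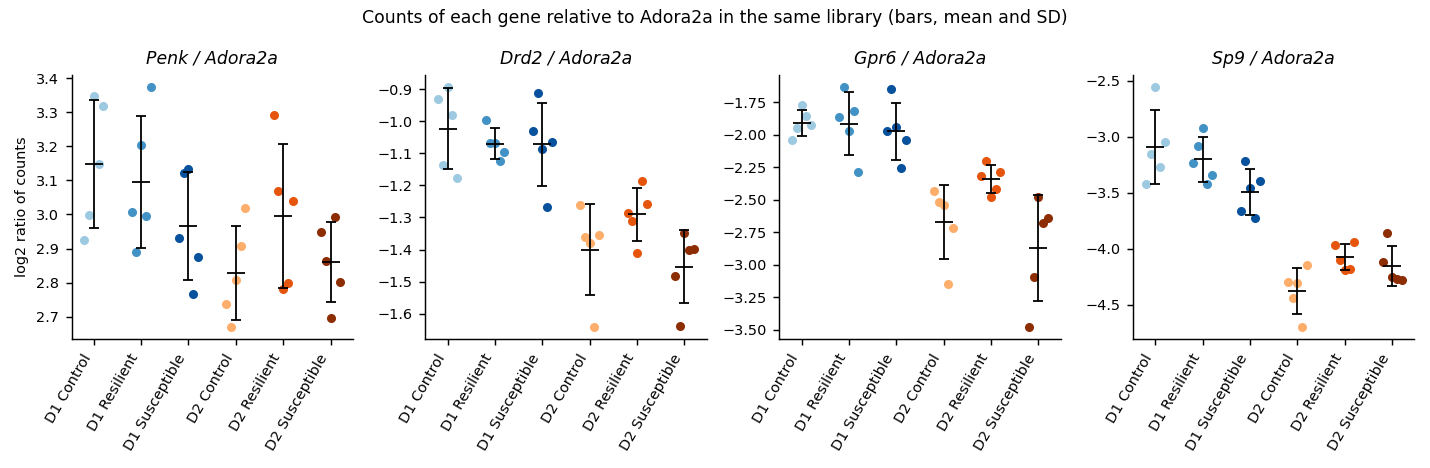
Log2 ratio of the counts of Penk, Drd2, Gpr6 and Sp9 to those of Adora2a in the same library, with 1 point for each library and bars for the mean and SD of 5 libraries (axes do not start at 0). Mean ratios of Drd2, Gpr6 and Sp9 are lower in D2 than in D1 libraries, and D2 Susceptible replicates 1 and 2 (-3.48 and -3.10) and D2 Control replicate 4 (-3.15) have the lowest Gpr6 ratios.

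The same ratios were set against each other between classes, a comparison chosen after the values were seen, with 12 exact permutation tests adjusted together. Sp9 relative to Adora2a was lower in D2 than in D1 libraries by -1.29 in Control, -0.87 in Resilient and -0.66 in Susceptible on the log2 scale (exact permutation adjusted p 0.0119 in each). Gpr6 was lower by -0.76, -0.43 and -0.90 (exact permutation adjusted p 0.0119, 0.0212 and 0.0119). For Drd2 the differences were -0.38, -0.22 and -0.38 (exact permutation adjusted p 0.0119 in each). The D1 libraries therefore held more Sp9, Gpr6 and Drd2 per Adora2a count than the D2 libraries. That restates the larger class difference of Adora2a in each state and is not a separate result. With 5 against 5 libraries no exact permutation p under 0.00794 is possible, and 0.0119 is that limit after adjustment. Penk differed by -0.32 in Control (exact permutation adjusted p 0.0381), by -0.10 in Resilient (0.452) and by -0.11 in Susceptible (0.294).

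Across libraries of 1 class the 5 genes rose and fell together. Deviations of log2 CPM from the group means correlated between every pair of genes, with Pearson r from 0.80 (Penk and Gpr6) to 0.98 (Drd2 and Adora2a) over the 15 D1 libraries. Over the 15 D2 libraries r ran from 0.63 (Penk and Gpr6) to 0.95 (Drd2 and Adora2a). D2 Resilient replicate 5 and D2 Control replicate 5 were the lowest D2 libraries for all 5 genes, and r without them is not given here. The points share library depth and scaling, and these r values are given as a description.

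In the D2 libraries the identity genes were low where D1-class genes were high. D2 Resilient replicate 5 had the lowest identity genes and the highest summed level of the 8 D1-class genes, at 1878 CPM against 378 to 493 CPM in the other 4 D2 Resilient libraries. D2 Control replicate 5 was next, at 1252 CPM against 348 to 724 CPM in the rest of its group. Against the mean log2 CPM of the 8 D1-class genes over 15 D2 libraries, 5 relations were computed, with permutation p adjusted over the 5. Sp9 had r -0.95 (permutation p 1e-05, the smallest possible, adjusted 5e-05) and rho -0.81 (permutation p 0.00038, adjusted 0.0019). It was -0.84 without D2 Resilient replicate 5 and D2 Control replicate 5 (permutation p 0.0012). Penk had r -0.87 (permutation p 8e-05, adjusted 2e-04) and rho -0.66 (permutation p 0.00937, adjusted 0.0234), and r -0.57 without the pair (permutation p 0.0297).

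For Drd2 and Gpr6 the relation rested on those 2 libraries, and for Adora2a, as for Penk, it was weaker without them. Adora2a had r -0.86 (permutation p 0.00025, adjusted 0.000417) and rho -0.63 (permutation p 0.0151, adjusted 0.0252), and r -0.46 without them (permutation p 0.111). Drd2 had r -0.80 (permutation p 0.00213, adjusted 0.00266) and rho -0.55 (permutation p 0.0342, adjusted 0.0342), and r -0.15 without them (permutation p 0.64). Gpr6 had r -0.60 (permutation p 0.0184, adjusted 0.0184) and rho -0.56 (permutation p 0.0319, adjusted 0.0342), and r 0.06 without them (permutation p 0.831). With each group's mean taken out of both measures, r over the 15 libraries was -0.93 for Sp9, -0.89 for Adora2a, -0.86 for Penk, -0.80 for Drd2 and -0.70 for Gpr6. Without the same pair it was -0.75, -0.50, -0.42, -0.04 and -0.13 over 13 libraries. These within-group values are a description.

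**Figure D5:**
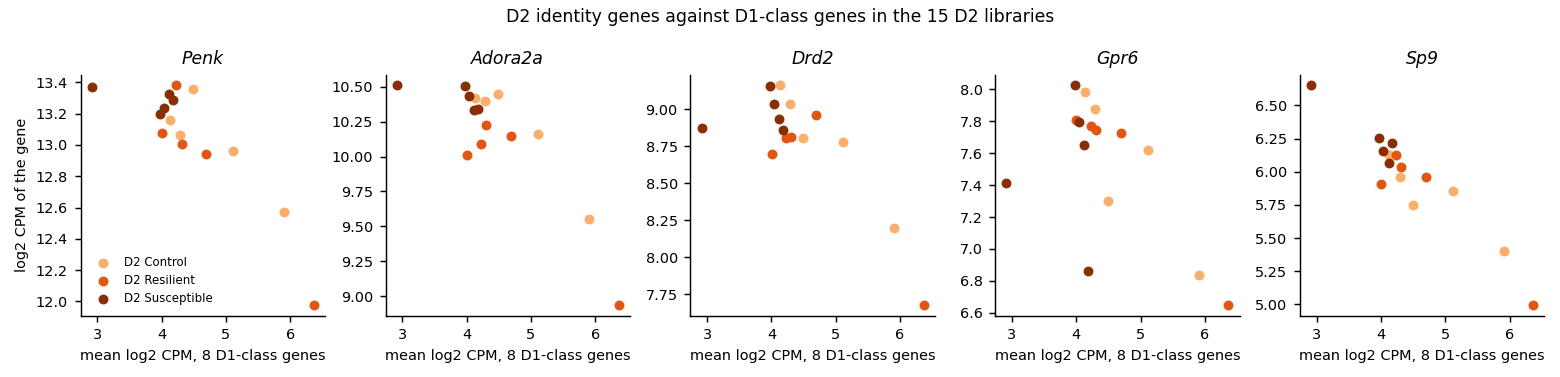
Log2 CPM of each identity gene (vertical axis) against the mean log2 CPM of 8 D1-class genes (horizontal axis) in the 15 D2 libraries, coloured by stress group. D2 Resilient replicate 5 (6.37) and D2 Control replicate 5 (5.90) lie far to the right and low in every panel, and D2 Susceptible replicate 2 (2.91) lies farthest to the left.

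Genes with the most similar pattern were ranked among 10199 genes with a mean of at least 5 CPM. An r over both classes includes the difference between D2 and D1 libraries, so genes with a large difference of that kind can score high. Over the 30 libraries P2ry1, which encodes an ADP receptor, ranked first for Penk (r 0.99), Adora2a (r 0.99), Drd2 (r 0.98) and Sp9 (r 0.98). It was 31.2 ± 2.62 CPM in D1 libraries and 131 ± 30.3 CPM in D2 libraries of Control mice (SD, n = 5). Jun, which encodes a subunit of the AP-1 transcription factor, was among the first 3 for the same 4 genes (r 0.97 to 0.98), at 56.8 ± 4.09 CPM in D1 libraries and 355 ± 89.5 CPM in D2 libraries of Control mice. For Gpr6 the first was H2-K1 (r 0.98), a class I histocompatibility gene. The other genes named by the rule were Slco1c1, Ly6a, Ptprb and Plxdc1 (r 0.96 to 0.98), and Slco1c1, Ly6a and Ptprb are known from vascular endothelium.

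Over deviations from group means in the 15 D2 libraries, Jun was the most similar to Adora2a (r 0.95) and Drd2 (r 0.93). Afap1l1 was first for Penk (r 0.92), Igfbp7 for Gpr6 (r 0.92) and Scd1, a fatty acid desaturase gene, for Sp9 (r 0.86). These r values follow from ranking many genes and describe these libraries only.

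Other D2-class genes were taken from a list of Grik3, Ptprm, Plxdc1, Upb1, Ttc12 and Gucy1a1. By edgeR 4 of the 6 were higher in D2 than in D1 libraries in each stress group and 0 were lower, where 4.8%, 3.9% and 13.4% of all genes were called higher in Control, Resilient and Susceptible mice. In Control mice Plxdc1 differed by 1.37 on the log2 scale (edgeR adjusted p 1.13e-07), at 13.6 ± 2.02 CPM in D1 libraries and 35.1 ± 5.08 CPM in D2 (SD, n = 5). Upb1, which encodes an enzyme of pyrimidine breakdown, differed by 2.18 (edgeR adjusted p 5.07e-06), and Ptprm, a receptor tyrosine phosphatase gene, by 1.18 (edgeR adjusted p 2.90e-05). Gucy1a1, a subunit of the nitric oxide receptor guanylate cyclase, differed by 1.01 (edgeR adjusted p 0.000223). The median log2 difference of the 6 was 1.27 in Control, below the 2.60 of the 5 identity genes.

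Genes for enkephalin processing and opioid receptors showed no such rise beside Penk. Of Pcsk1, Pcsk2, Cpe, Mme, Oprm1, Oprd1 and Oprk1, edgeR called 0 higher and 2 lower in D2 Control, where 3.51% of all genes were called lower (2.75% in Resilient and 10.5% in Susceptible mice). Pcsk1, a prohormone convertase, was 25.8 ± 6.23 CPM in D1 libraries and 13.7 ± 2.87 CPM in D2 libraries of Control mice (SD, n = 5), a log2 difference of -0.92 (edgeR adjusted p 0.000409). Oprk1, the kappa opioid receptor gene, differed by -0.56 (edgeR adjusted p 0.00623). In Resilient mice 0 of 7 were called and in Susceptible mice 1 of 7, Pcsk1 at -0.95 (edgeR adjusted p 0.000174). The delta receptor gene Oprd1 was at 1.03 and did not pass (edgeR adjusted p 0.129).

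Of the genes that act on adenosine, 2 of 5 were higher in D2 Control and 0 lower by edgeR, where 4.8% of all genes were called higher and 3.51% lower. Nt5e, the ectonucleotidase that makes extracellular adenosine, was 12.8 ± 2.65 CPM in D1 libraries and 40.4 ± 8.15 CPM in D2 libraries of Control mice (SD, n = 5), a log2 difference of 1.66 (edgeR adjusted p 1.13e-06). Adk, adenosine kinase, differed by 0.77 (edgeR adjusted p 0.000491). Both were called in Resilient and Susceptible mice too, where the counts were 2 higher of 5, and 3 higher and 1 lower of 5. Of all genes 3.9% were called higher in Resilient mice, and 13.4% were called higher and 10.5% lower in Susceptible mice. Adora1, Slc29a1 and Ada were not called in Control.

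Of 16 genes of receptor signalling to cyclic AMP, 15 were tested and Rasgrp2 did not pass the filter. In Control 1 was higher and 1 lower in D2 by edgeR, beside 4.8% and 3.51% of all genes. Gnai1, an inhibitory G protein subunit, was 269.7 ± 38.7 CPM in D1 libraries and 158 ± 22.9 CPM in D2 libraries of Control mice (SD, n = 5), a log2 difference of -0.77 (edgeR adjusted p 2.71e-05). Gnai2, another such subunit, differed by 0.29 (edgeR adjusted p 0.0179). The counts were 0 higher and 2 lower in Resilient, and 2 higher and 2 lower in Susceptible mice, beside 3.9% higher and 2.75% lower of all genes in Resilient and 13.4% and 10.5% in Susceptible mice. Beside Sp9, 3 of 8 striatal transcription factor genes were higher in D2 Control and 0 lower by edgeR: Six3 at 0.83 (adjusted p 7.20e-06), Dlx6 at 0.57 (adjusted p 0.0108) and Foxp1 at 0.75 (adjusted p 0.0343). The counts were 1 of 8 in Resilient and 5 of 8 in Susceptible mice, where 3.9% and 13.4% of all genes were called higher. The summed level of the 8 genes was 5283 and 5203 CPM in D2 Susceptible replicates 1 and 2 and 2499 to 2990.3 CPM in the other 3, and the part of those 2 libraries in the 5 calls was not tested.

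Markers of other cells were read beside the class difference. Of 8 D1-class genes, 6 were lower and 0 higher in D2 Control by edgeR, and 4 were lower in Resilient and 6 in Susceptible mice. Of all genes 3.51%, 2.75% and 10.5% were called lower in the same order. The sum of the 8 D1-class genes was 1754 to 2634 CPM in D1 libraries. In D2 libraries it was 348 to 1252 CPM in Control, 378 to 1878 CPM in Resilient and 287 to 652 CPM in Susceptible mice. By edgeR 4.8%, 3.9% and 13.4% of all genes were called higher in Control, Resilient and Susceptible mice. All 4 endothelial markers (Cldn5, Flt1, Pecam1 and Ly6a) were higher in D2 libraries in each stress group. Their sum was 11.5 to 25.3, 11.3 to 14.95 and 12.8 to 31.5 CPM in D1 Control, Resilient and Susceptible, and 121 to 267, 46.8 to 168 and 157 to 304 CPM in the D2 groups. The median log2 difference of these 4 in Control was 3.37, above that of each identity gene. Their part in the class difference of the identity genes was not tested.

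Of 4 GABA interneuron markers, 3 were lower in D2 Control (Sst, Npy and Pvalb) and 0 higher by edgeR. In Control 3.51% of all genes were called lower and 4.8% higher. The sum of these 4 markers was 301 to 457 CPM in D1 Control and 89.1 to 265 CPM in D2 Control. Of 4 astrocyte markers 2 were higher (Gfap and Slc1a3), with sums of 21.9 to 99.4 CPM in D1 Control and 71.7 to 108 CPM in D2 Control, and of 3 dopamine neuron markers 1 was higher (Th). None of 4 oligodendrocyte, 4 microglia and 3 cholinergic markers was called in either direction in Control. In Resilient mice 3 GABA interneuron markers were lower, and 4 astrocyte, 1 oligodendrocyte and 1 microglia marker were higher. In Susceptible mice 4 GABA interneuron, 2 cholinergic and 1 dopamine neuron marker were lower, and 3 astrocyte, 3 oligodendrocyte and 1 dopamine neuron marker were higher. Of all genes 3.9% were called higher and 2.75% lower in Resilient mice, and 13.4% and 10.5% in Susceptible mice. No marker of any list was at 0 in all libraries, and no gene of these lists was called in a stress or interaction comparison by edgeR.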

How the data were processed

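Polyribosome-associated RNA was sequenced in 30 libraries, 5 in each of 6 groups. The deposited values are whole-number read counts per gene, made by the authors with HISAT2 and HTSeq against GRCm38/mm10, per the submitters' processing notes. No source used here gives the tool versions, the strand setting or the annotation release. Identifiers were paired with symbols through GENCODE M21, which matched 55154 of 55335. Summary lines that name no gene, 10.1% to 53.3% of a library's counted reads, were left out of library sizes. A floor of 3 counts is 0.0430 to 0.304 CPM and covers counting error only.

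Counts were tested with edgeR 4.0.16 in R 4.3.3 (TMM scaling, filterByExpr with min.count 10 and min.total.count 15, a robust quasi-likelihood fit of all 6 groups, Benjamini-Hochberg adjustment over 19368 genes, threshold 0.05). The scripts were tested on simulated data. CPM on a log2 scale and ratios used a prior count of 1, and ratios were tested by exact permutation. Correlations used 100000 permutations. With no match for Gpr52, 12 ratio tests were made. Replicates are separate pools of mice, and p-values measure the spread between pools.

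The members and lists were chosen with earlier results of these data known. Named genes were the members, the 2 to 4 genes per list with the smallest adjusted p in D2 minus D1 Control, and the 3 most similar genes per member. The list of markers shared by medium spiny neurons is not reported here. Alternatives were DESeq2 1.42.0, DESeq2 size factors, no filter, only the groups compared, voom with quality weights (limma 3.58.1), the replicate number as a block, each library left out, and for ratios a prior count of 5 and Drd2 as reference. Leaving out D2 Susceptible replicates 1 and 2, or these as well as D2 Resilient replicate 5 and D1 Susceptible replicate 1, was chosen after seeing the data, as were the class tests of ratios. Figures were drawn with matplotlib 3.10.9.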

Additional observations from a re-analysis of the deposited data

Results flagged for a closer look

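Within each group of 5 libraries, the highest and the lowest value of each identity gene were compared with the nearest other value by Dixon's ratio (critical value 0.71), and 6 of 30 combinations of gene and group stood apart. For a single combination chance gives about 1 in 20. The genes share the same libraries and rose and fell together, so the 30 combinations are not independent. D2 Resilient replicate 5 stood apart as low for 4 genes, with Drd2 at 205 CPM, Adora2a at 491 CPM, Gpr6 at 100.5 CPM and Sp9 at 31.9 CPM. The same library held 1878 CPM of the 8 D1-class genes in sum. In D1 Control replicate 1, Penk stood apart as high at 1811 CPM. In D2 Susceptible replicate 2, Sp9 stood apart as high at 100.4 CPM, beside 276 CPM of the opposite-strand gene Cir1.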

How the results depend on the processing

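Each of the 15 class differences stayed past the threshold in all of its 270 alternatives, and 0 of 960 alternatives of the 45 stress and interaction results passed it. Among the single-gene differences, 47 fits without 1 library changed sign and 703 did not, 12 other fits changed sign and 468 did not. None of those that changed sign passed the threshold, and the cause was not tested. With voom quality weights the log2 differences became -0.089 for Gpr6 and -0.061 for Sp9 in D2 Resilient minus Control, -0.082 for Sp9 in D1 Susceptible minus Control, and -0.020 for Gpr6 and -0.25 for Sp9 in D1 Susceptible minus Resilient. With the same weights the interactions became 0.013 for Penk in Susceptible minus Control, and 0.37 for Drd2 and 0.21 for Gpr6 in Susceptible minus Resilient. Without the 4 libraries that stand apart, Penk in D2 Resilient minus Control became 0.073. The interactions became 0.037 for Gpr6 and 0.098 for Sp9 in Resilient minus Control and -0.019 for Adora2a in Susceptible minus Resilient.

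Leaving out 1 library moved D2 Resilient minus Control from -0.12 to 0.18 for Gpr6, -0.23 to 0.064 for Penk and -0.074 to 0.17 for Sp9, each highest without D2 Resilient replicate 5. It moved Gpr6 from -0.12 to 0.15 in D2 Susceptible minus Control and from -0.16 to 0.14 in D2 Susceptible minus Resilient. D1 Resilient minus Control ran from -0.044 to 0.35 for Drd2, -0.068 to 0.32 for Penk and -0.0070 to 0.18 for Sp9, each highest without D1 Control replicate 1, and D1 Susceptible minus Resilient from -0.037 to 0.23 for Sp9. The interactions ran from -0.31 to 0.031 for Gpr6 and -0.17 to 0.093 for Sp9 in Resilient minus Control, and from -0.14 to 0.20 for Adora2a, -0.25 to 0.048 for Drd2 and -0.12 to 0.25 for Penk in Susceptible minus Resilient. The number of ratio tests past the threshold ran from 0 to 4 when 1 library was left out, with 4 without D2 Control replicate 5.

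Samples with the same replicate number showed no common deviation on average (median r -0.00655, -0.143 to 0.0637 over 75 pairs). For different numbers the median r was 0.00056 (-0.192 to 0.185 over 300 pairs). A median near 0 cannot show that samples with the same number shared nothing. With the replicate block 5 of 5 genes were called in each class comparison, 0 in each stress and interaction comparison, and 0 ratio tests passed (smallest adjusted p 0.375 by exact permutation, where no p under 0.0625 is possible).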
